A study of Homo sapiens with 8 samples.

Results

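The 10 genes followed here help to set whether cells keep an epithelial or take a mesenchymal state. They were followed through a neural differentiation of human pluripotent stem cells under WNT3A, in a study of how Wnt signalling patterns the nervous system from front to back. They were chosen by name from the table of transcript levels, and all 10 were found among its 35940 gene symbols, each with 1 Ensembl row. SNAI1, SNAI2, ZEB1, ZEB2 and TWIST1 are transcription factors that drive epithelial to mesenchymal transition (EMT). GRHL2, OVOL1 and OVOL2 are transcription factors that maintain epithelia, and ESRP1 and ESRP2 are RNA-binding proteins that impose epithelial splicing.

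The cells were ESI017, a wild-type human embryonic stem cell line. Every group was grown in the serum-free neural medium N2B27, to which SB (10 μM) and LDN (100 nM) had been added, and from 34 h on the medium also held recombinant WNT3A at 300 ng/mL. Poly(A) RNA was sequenced at 34, 42, 50 and 72 h, which is 0, 8, 16 and 38 h from the addition of WNT3A, with 2 libraries at each time point and 8 in all. Replicates 1 and 2 carry the batch labels 1 and 2, which are therefore balanced over time. No group without WNT3A was analysed here, so time and WNT3A cannot be told apart, and all results are from 1 cell line.

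In EMT, the SNAIL and ZEB proteins bind E-box DNA in the promoters of junction genes such as CDH1 and repress them. ZEB mRNAs are themselves held down by the microRNAs of the miR-200 family, and GRHL2 and the OVOL proteins repress ZEB1, so that the opposing sides restrain each other. The ESRP proteins act downstream on exon choice, and ESRP genes are repressed when the EMT factors take over. In the early embryo the same factors are known from gastrulation and from neural crest, and ZEB2 is also a factor of the neural plate.

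The microRNA sequences and their matches in the ZEB mRNAs are shown because they are the best-known sequence link between the 2 sides. The mature sequences, from RefSeq on GRCh38.p14, fall into groups by their seed, bases 2 to 8, which is in capitals, and all 5 lie on the plus strand. The first 3 share AAUACUG and the last 2 share AACACUG.
miR-200b-3p, chr1:1167160-1167181: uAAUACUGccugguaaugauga
miR-200c-3p, chr12:6963742-6963764: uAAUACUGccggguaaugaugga
miR-429, chr1:1169055-1169076: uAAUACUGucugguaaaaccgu
miR-200a-3p, chr1:1167916-1167937: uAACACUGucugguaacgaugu
miR-141-3p, chr12:6964155-6964176: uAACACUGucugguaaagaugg

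Matches to the reverse complement of either seed were counted in the 3′ untranslated region of 1 principal protein-coding transcript per gene in GENCODE release 29 (GRCh38). ZEB2 held 9 matches in 5370 bases and ZEB1 held 8 in 1938 bases. Of 18929 genes searched, 26.1% held at least 1 match, 0.0264% as many as ZEB2 and 0.0475% as many as ZEB1. Among the 908 genes with a region within 20% of the length of that of ZEB2, 0.22% held as many. A match is a description of the sequence, and the microRNAs themselves were not measured. Some of the matches are printed 5′ to 3′ on the strand of the gene (ZEB2 minus, ZEB1 plus), with the seed match in capitals.
ZEB2, chr2:144389052-144389073: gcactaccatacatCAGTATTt
ZEB2, chr2:144388989-144389010: gcactacaatgcatCAGTATTa
ZEB2, chr2:144388710-144388731: gtgccatccttgtaCAGTGTTa
ZEB1, chr10:31527619-31527640: ttgttttatcttatCAGTATTa
ZEB1, chr10:31528783-31528804: gagatttgatttaaCAGTGTTa

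Over the 14908 tested genes, Spearman correlations within a time point were 0.98 to 0.984, and the mitochondrial share of TPM was 8.7% to 11.2%. TPM is a length-scaled share of a library, so levels of different genes can be set side by side, but it keeps no read number and the depth is unknown. The pluripotency genes POU5F1 and SOX2 were high throughout, from 354 to 1170 TPM and from 168 to 348 TPM, while NANOG had 0.38 to 2.77 TPM. SOX17, an endoderm marker, was listed at 0 in all 8 libraries. In such bulk samples, fewer cells expressing a gene and less RNA per cell cannot be told apart.

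The first question was which of the 10 genes changed in the course, and in which direction. At 72 h against 34 h 9 of the 10 differed (limma adjusted p under 0.05), 3 raised and 6 lowered, against 24.0% of all tested genes, of which 12.7% were raised and 11.3% lowered. All 5 of the epithelial genes GRHL2, OVOL1, OVOL2, ESRP1 and ESRP2 fell. ZEB1, ZEB2 and SNAI2 rose, SNAI1 fell, and TWIST1 did not pass the threshold. Differences are in log2(TPM + 1), a scale that understates the change of low genes. All 10 passed the filter of at least 1 TPM in at least 2 libraries. GRHL2, OVOL1, OVOL2, ZEB1, SNAI2 and TWIST1 passed it only through the time points where they were high, so the counts are a description.

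**Figure D1:**
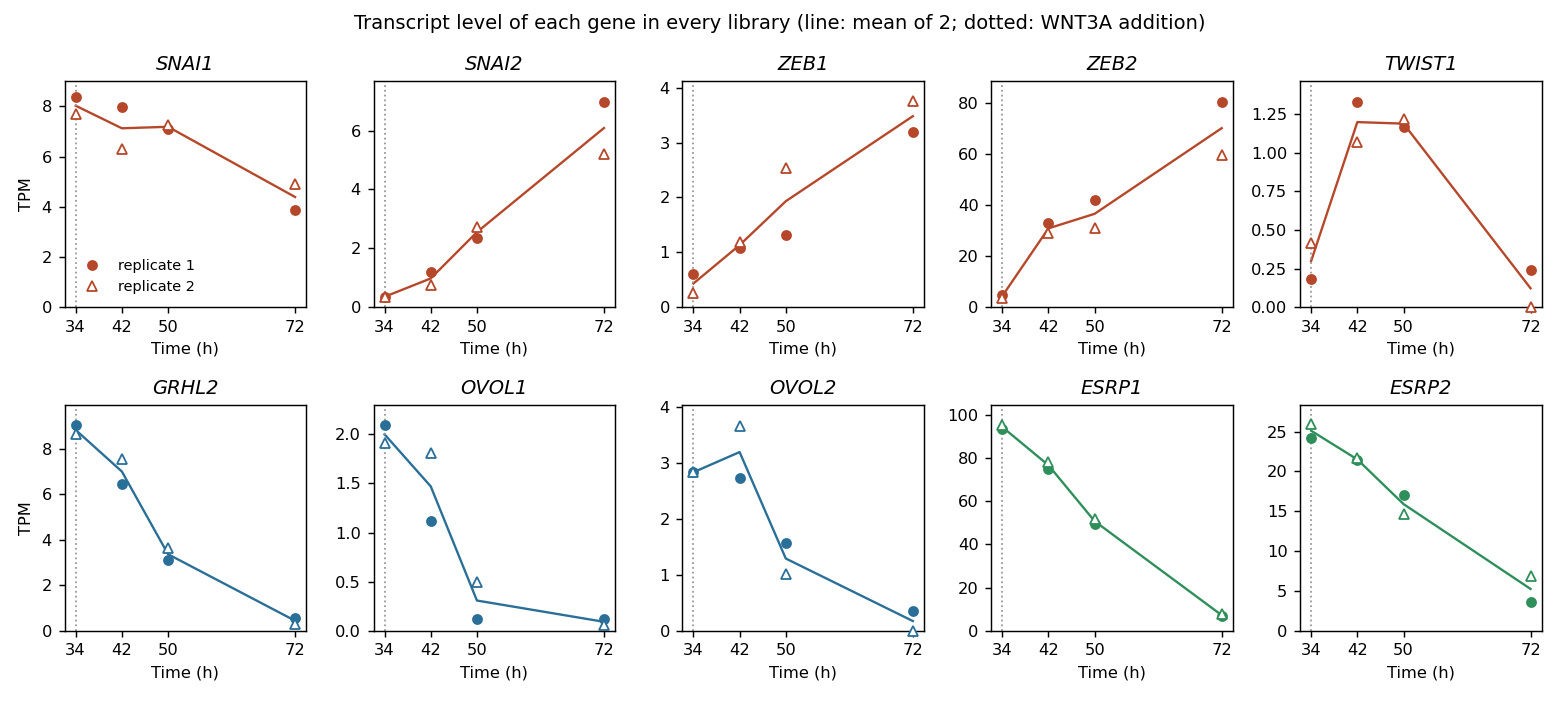
TPM of the 10 genes against time in hours, 1 panel per gene with its own axis from 0, with filled circles for replicate 1, open triangles for replicate 2, a line through the mean of 2, and a dotted line at the addition of WNT3A. The EMT factors in the top row include 3 that climb (SNAI2, ZEB1, ZEB2), 1 that is lower at 72 h (SNAI1) and 1 with its high values at 42 and 50 h (TWIST1), and the 5 epithelial genes in the bottom row end near the bottom of their panels.

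ZEB2 (Ensembl ENSG00000169554, chromosome 2, 144364364 to 144524583, minus strand), a zinc finger repressor of CDH1, rose within the first 8 h under WNT3A. Its libraries had 4.92 and 3.74 TPM at 34 h, 32.9 and 28.8 at 42 h, 41.8 and 31.1 at 50 h, then 80.4 and 59.6 at 72 h. Both libraries of each later time point lay above both 34 h libraries, and the 42 and 50 h libraries overlapped. The rise in the first 8 h was 2.58 ± 0.20 on the log2 scale (SE, limma adjusted p 0.000489), 2.52 and 2.65 by replicate, and the mean TPM was 7.12-fold higher. ZEB2 was the only one of the 10 genes past the threshold at 42 h against 34 h, where 2.58% of all tested genes were (1.78% raised and 0.792% lowered). From 42 h to 50 h it differed by 0.22 ± 0.20 (adjusted p 0.782), and from 50 h to 72 h it rose by 0.92 ± 0.20 (limma adjusted p 0.0319). That later rise was lost without replicate 2 at 50 h (0.151), without replicate 1 or replicate 2 at 72 h (0.197 and 0.0502) and in 3 other alternatives (0.0554 to 0.0817). At 72 h against 34 h the rise was 3.73 ± 0.20 (limma adjusted p 1.31e-05), or 16.2-fold in mean TPM.

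ZEB1 (chromosome 10, 31318495 to 31529814, plus strand), the paralog of ZEB2, was low throughout and rose by 72 h. It had 0.606 and 0.254 TPM at 34 h, 1.08 and 1.18 at 42 h, 1.32 and 2.54 at 50 h, then 3.2 and 3.75 at 72 h. The values climbed without overlap between time points. Its difference from 34 h was 0.58 ± 0.28 at 42 h (adjusted p 0.417) and 1.01 ± 0.28 at 50 h (0.075), and the rise of 1.65 ± 0.28 at 72 h passed (limma adjusted p 0.00397; 1.39 and 1.92 by replicate). ZEB2 stood above ZEB1 in every library, by between 8.12-fold and 31.8-fold in TPM.

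SNAI2 (chromosome 8, 48917604 to 48921740, minus strand), the SNAIL family repressor also called Slug, had 0.339 and 0.36 TPM at 34 h. Later values were 1.21 and 0.74 at 42 h, 2.36 and 2.74 at 50 h, then 6.99 and 5.19 at 72 h, all in TPM. Each time point lay above the one before without overlap. Relative to 34 h it rose by 1.39 ± 0.24 at 50 h (limma adjusted p 0.0121; 1.33 and 1.46 by replicate) and by 2.38 ± 0.24 at 72 h (0.000315; 2.58 and 2.19), a 17.4-fold difference in mean TPM. Leaving out 1 library of 34 h or 50 h ended the 50 h call (adjusted p 0.054 to 0.0714). Its further rise after 50 h (0.99 ± 0.24 by 72 h, limma adjusted p 0.0452) was lost with the replicate block (0.0564) and in 13 of the 17 other alternatives, among them each of the 8 that leave out a library (0.0527 to 0.269).

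SNAI1 (chromosome 20, 49982999 to 49988886, plus strand), the other SNAIL repressor, took the opposite course. It had 8.36 and 7.7 TPM at 34 h, 7.96 and 6.31 at 42 h, 7.1 and 7.27 at 50 h, then 3.86 and 4.92 at 72 h. Both 72 h libraries lay below the other 6, and the 42 h libraries spanned those of 50 h. From 34 h to 72 h it fell by 0.75 on the log2 scale (SE 0.18, limma adjusted p 0.0188; -0.95 and -0.56 by replicate). This call was lost without replicate 1 or replicate 2 at 34 h (0.0906 and 0.0663) and without replicate 1 at 72 h (0.113). In TPM, SNAI1 stood at 24.7 and 21.4 times SNAI2 in the 34 h libraries and at 0.553 and 0.948 times SNAI2 in the 72 h libraries.

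TWIST1 (chromosome 7, 19020991 to 19117672, minus strand), a basic helix-loop-helix factor of mesoderm and cranial mesenchyme, was low and had its highest values in the middle. It had 0.183 and 0.414 TPM at 34 h, 1.33 and 1.07 at 42 h, 1.17 and 1.22 at 50 h, then 0.243 TPM and a listed 0 at 72 h. The 4 middle libraries lay above the 4 outer ones. The mean of 42 and 50 h exceeded that of 34 and 72 h by 0.87 ± 0.19 (limma adjusted p 0.0436; 0.89 and 0.85 by replicate). This was not past the threshold with the replicate block (0.0674), at a pseudocount of 0.1 (0.0685), after quantile normalization (0.0609), with Ensembl rows apart (0.0545) or without any 1 of the 8 libraries (0.102 to 0.146). Against 34 h alone it missed the threshold at 42 h (0.246), 50 h (0.154) and 72 h (0.607).

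The same contrast of the middle against the ends was past the threshold for 4 of the 10 genes, ZEB2, TWIST1, GRHL2 and ESRP1, all with the middle higher on the log2 scale, against 4.29% of all tested genes (3.05% higher and 1.24% lower). For GRHL2, ESRP1 and ZEB2 the middle time points lay between the ends in TPM. A positive value there reflects a fall that came mostly late for GRHL2 and ESRP1 and a rise that came mostly early for ZEB2, and in mean TPM the middle of ZEB2 stood at 0.906 times its ends. With the replicate block the limma adjusted p of GRHL2 rose from 0.0364 to 0.0555, over the threshold, and the count was then 2. Without 1 library at a time the count was 1 or 2, for each of the 8 libraries, and the call of GRHL2 held in 7 of 17 alternatives (adjusted p up to 0.132), that of ZEB2 in 13 of 18 (up to 0.0684) and that of ESRP1 in 18 of 18. GRHL2 lost the call without any 1 of the 8 libraries, and ZEB2 without replicate 2 at 34 h, replicate 1 at 42 h, replicate 1 at 50 h or replicate 2 at 72 h.

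ESRP1 (chromosome 8, 94641074 to 94707466, plus strand), the main epithelial splicing regulator, was the highest of the 10 genes at 34 h. It had 93.5 and 95.2 TPM at 34 h, 74.9 and 78.2 at 42 h, 49.4 and 51.9 at 50 h, then 6.83 and 7.64 at 72 h. No time points overlapped. The difference at 42 h missed the threshold (-0.30 ± 0.10, adjusted p 0.241). ESRP1 fell by 0.88 at 50 h (SE 0.10, limma adjusted p 0.00195; -0.91 and -0.86 by replicate) and by 3.53 at 72 h (SE 0.10, adjusted p 1.35e-06; -3.59 and -3.48), with a mean TPM 13.0-fold lower. Of this, 2.65 fell between 50 h and 72 h (limma adjusted p 2.83e-05).

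ESRP2 (chromosome 16, 68229111 to 68238102, minus strand), its paralog, had 24.2 and 25.9 TPM at 34 h, 21.4 and 21.7 at 42 h, 17.1 and 14.7 at 50 h, then 3.65 and 6.84 at 72 h. The 4 time points did not overlap. It fell by 2.11 at 72 h (SE 0.23, limma adjusted p 0.000467; -2.44 and -1.78 by replicate), and its difference at 50 h of -0.63 ± 0.23 missed the threshold (0.165). ESRP1 exceeded ESRP2 by 3.5-fold to 3.86-fold in TPM in the 34 and 42 h libraries and by 1.87-fold and 1.12-fold in those of 72 h.

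GRHL2 (chromosome 8, 101492432 to 101669726, plus strand), a Grainyhead factor that activates CDH1 and claudin genes, had 9.04 and 8.64 TPM at 34 h, 6.46 and 7.56 at 42 h, 3.1 and 3.65 at 50 h, then 0.564 and 0.32 at 72 h. The values stepped down without overlap. The fall was 1.17 at 50 h (SE 0.19, limma adjusted p 0.00971; -1.29 and -1.05 by replicate) and 2.78 at 72 h (SE 0.19, 4.16e-05; -2.68 and -2.87), from a mean of 8.84 TPM to 0.442 TPM. The 50 h call was lost without replicate 1 or replicate 2 at 34 h (0.0729 and 0.0686) or without replicate 1 at 50 h (0.0647).

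The OVOL genes encode zinc finger repressors of ZEB1 and other EMT genes, and both were low. OVOL1 (chromosome 11, 65787022 to 65797219, plus strand) had 2.09 and 1.91 TPM at 34 h, 1.12 and 1.81 at 42 h, 0.117 and 0.498 at 50 h, then 0.121 and 0.0616 at 72 h. OVOL2 (chromosome 20, 17956979 to 18059188, minus strand) had 2.83 and 2.83 TPM at 34 h, 2.72 and 3.66 at 42 h, 1.56 and 1.02 at 50 h, then 0.347 TPM and a listed 0 at 72 h. For both genes the 34 and 42 h libraries all lay above those of 50 and 72 h. OVOL1 fell by 1.46 at 72 h (SE 0.28, limma adjusted p 0.00732), and its fall of 1.21 at 50 h (0.0415) was lost with the replicate block (0.0538) and in 11 other alternatives (0.0513 to 0.179), among them each of the 8 that leave out a library. OVOL2 fell by 1.72 at 72 h (SE 0.26, limma adjusted p 0.00256; -1.51 and -1.94 by replicate).

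**Figure D2:**
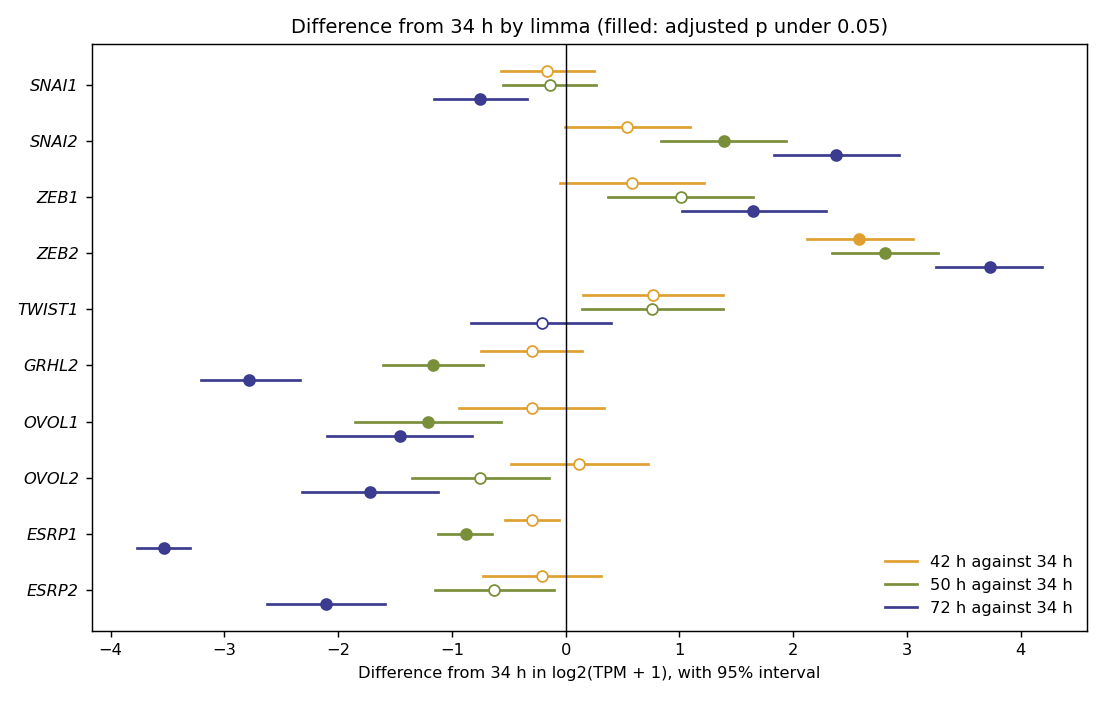
Difference of each gene from 34 h in log2(TPM + 1) at 42, 50 and 72 h, with its 95% interval from limma, filled where the adjusted p was under 0.05. ZEB2 is the one filled point at 42 h (2.58), and at 72 h the points run from -3.53 (ESRP1) to 3.73 (ZEB2).

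Across the 10 genes 1 was called at 42 h against 34 h and 5 were called at 50 h against 34 h, ZEB2 and SNAI2 raised and GRHL2, OVOL1 and ESRP1 lowered, against 6.26% of all tested genes (3.52% raised and 2.74% lowered). Without either 34 h library or without replicate 1 at 50 h 2 were called, and without replicate 2 at 50 h 3 were. Between 42 h and 50 h none of the 10 was called by limma, against 0.0939% of all tested genes (0.0604% raised and 0.0335% lowered), and SNAI2, GRHL2, OVOL1, OVOL2 and ESRP1, 5 in all, had an unadjusted p under 0.05, as did 1394 of the 14908 tested genes. Between 50 h and 72 h 5 were called, ZEB2 and SNAI2 raised and GRHL2, ESRP1 and ESRP2 lowered, against 7.33% of all tested genes (2.92% raised and 4.41% lowered). That count was 3 without replicate 2 at 50 h or without either 72 h library.

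The genes differed in how much of their whole change was done by each time point. ZEB2 had reached 69.3% of its difference between 34 h and 72 h by 42 h on the log2 scale (66.5% and 72.2% in the replicates). At 42 h ESRP1 had reached 8.42% (8.78% and 8.05%), ESRP2 9.89% (6.99% and 13.9%) and GRHL2 10.8% (16% and 5.99%). At 50 h ESRP1 stood at 25.2% and 24.8% in the replicates. ESRP2 stood at 29.7% (19.6% and 43.6%), GRHL2 at 42.2% (48.2% and 36.6%) and OVOL2 at 43.7% (38.5% and 47.7%). OVOL1 stood at 83.2% (100% and 65.9%), a range that spans the 75.3% of ZEB2 (75.5% and 75.1%). The replicate values of ZEB2 and of these 3 epithelial genes did not overlap at 42 h. These shares are descriptions, and the difference in timing between genes was not tested.

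**Figure D3:**
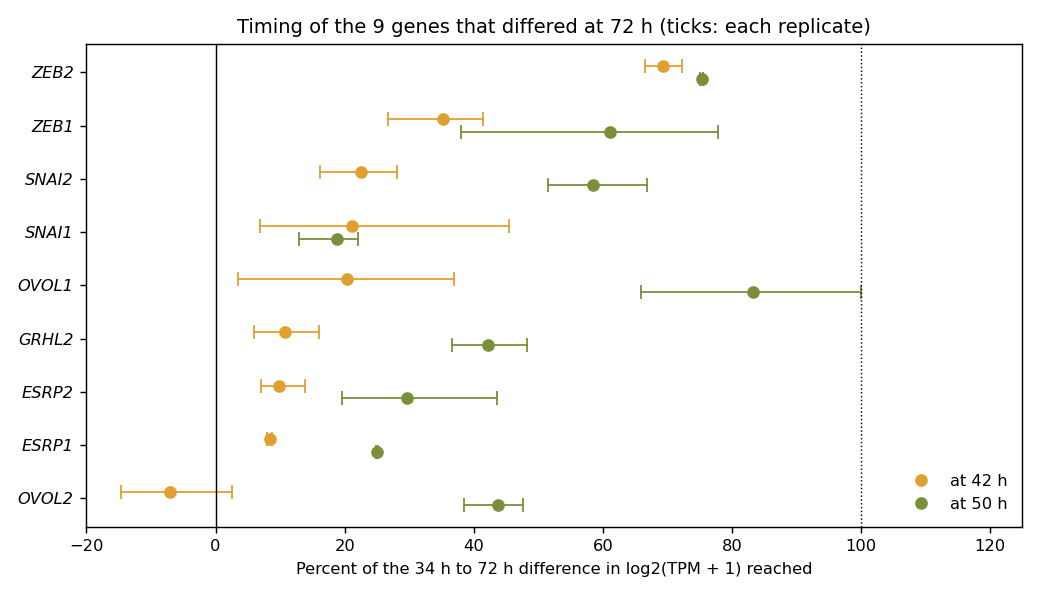
Percent of the 34 h to 72 h difference in log2(TPM + 1) reached at 42 h and at 50 h for the 9 genes that differed at 72 h, with circles from the means and ticks for each replicate. ZEB2 lies at 69.3% at 42 h, and the next gene, ZEB1, at 35.2%.

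The order of the levels turned over. At 34 h ESRP1 was followed by ESRP2, GRHL2, SNAI1, ZEB2, OVOL2 and OVOL1, each with both libraries above the next gene, and ZEB1, SNAI2 and TWIST1 came last and overlapped. ESRP1 stood at 19.0 and 25.5 times ZEB2 in the 34 h libraries, at 2.28 and 2.72 times at 42 h and at 1.18 and 1.67 times at 50 h. At 72 h ZEB2 stood at 11.8 and 7.8 times ESRP1. ZEB2 was then the highest of the 10, ESRP1, SNAI2, ESRP2 and SNAI1 followed with overlap between each and the next, and ZEB1 came after them. GRHL2, OVOL2, TWIST1 and OVOL1 closed the order under 1 TPM, each overlapping with the next. The summed TPM of the 5 epithelial genes went from 132 and 134 at 34 h to 11.5 and 14.9 at 72 h, and that of the 5 EMT factors from 14.4 and 12.5 to 94.7 and 73.4, most of it ZEB2.

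**Figure D4:**
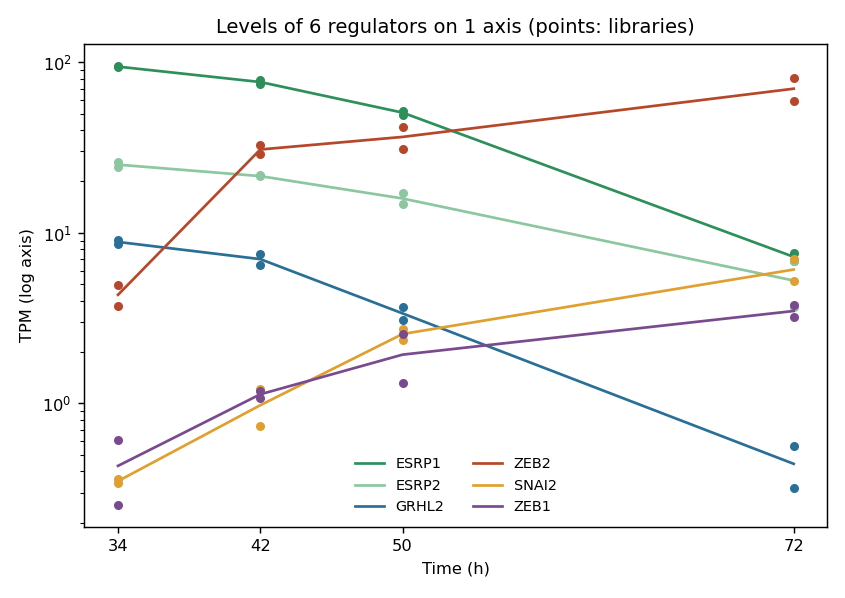
TPM of 6 of the genes on a logarithmic axis against time in hours, with points for libraries and lines through the means. The lines of ESRP1 and ZEB2 cross between 50 h, at means of 50.7 and 36.5 TPM, and 72 h, at 7.23 and 70.0 TPM.

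For each gene called in any contrast, the 3 genes with the closest course were found among 11534 tested genes of at least 5 TPM at their highest time point, by the root mean square difference of centred log2 values over the 8 libraries. The closest to ESRP1 were EPCAM (0.139), an epithelial adhesion molecule, CDH1 (0.158), which encodes E-cadherin, and AP1M2 (0.173), an adaptor subunit of epithelial sorting. For GRHL2 they were MAP7 (0.121), MAL2 (0.155) and SMPDL3B (0.159), and for ESRP2 PYCARD (0.087), RARRES2 (0.134) and TUBA4A (0.135). For ZEB2 they were ROR2 (0.187) and FZD10 (0.257), receptors for WNT ligands, and PRMT8 (0.273). ROR2 went from 5.33 and 4.09 TPM at 34 h to 32.7 and 29.2 at 42 h and then to 85.5 and 87.6 at 72 h. For SNAI2 they were NRGN, NTRK2 and SLC35F1 (0.21 to 0.222), for ZEB1 CCDC160, NCOA6 and NECAB2 (0.155 to 0.189), and for TWIST1 CA12, OAT and ACAT2 (0.137 to 0.156). OVOL1 had NECAB1, LGI4 and SLC37A1 (0.169 to 0.205), OVOL2 had SLC30A3, ADAMTS16 and DOCK5 (0.137 to 0.19), and SNAI1, whose range was small, had MAPK8IP1, PXN and ACAA1 (0.0689 to 0.0783).

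Most listed junction and surface genes of epithelia, a class these factors are known to control, fell by 72 h. The list was chosen with earlier results of these data known, so its counts are a description. Control of these genes by the 10 regulators was not tested. Of 30 epithelial junction and surface genes, all tested, 25 fell at 72 h against 34 h and none rose, where 11.3% of all tested genes were lowered and 12.7% raised. Their median was -1.15 against 0.06 over all tested genes. At 42 h 1 was lowered, KRT18, an epithelial keratin (-0.51, limma adjusted p 0.0385), and 1 was raised, the desmosome gene DSP, from 35.3 to 103 TPM (1.53 ± 0.12, limma adjusted p 0.000489), where 0.792% of all tested genes were lowered and 1.78% raised. The call of KRT18 held in 10 of 19 alternatives (adjusted p up to 0.248) and was lost without any 1 of the 34, 42 or 72 h libraries. At 50 h 11 were lowered and DSP was raised, where 2.74% of all tested genes were lowered and 3.52% raised. The 6 largest falls at 72 h were of CLDN7 (-4.48), EPCAM (-3.57), CDH1 (-3.46), MARVELD3 (-3.38), CRB3 (-3.36) and ST14 (-3.13). CDH1 had 150 and 137 TPM at 34 h, 132 and 151 at 42 h, 95.1 and 105 at 50 h, then 11.7 and 12.5 at 72 h. The 34 and 42 h libraries of CDH1 overlapped, while ZEB2 was 7.12-fold higher in mean TPM at 42 h. A link between CDH1 and ZEB2 was not tested. Not all junction genes fell: TJP1, TJP3, JUP, KRT19 and DSP did not pass the threshold at 72 h, and CLDN6, a claudin of pluripotent cells, fell but still had 652 and 720 TPM. JUP, a desmosome and adherens junction protein, had a difference of -0.49 whose limma adjusted p was 0.0664, and 0.037 once the replicate block was added, which passes. The call of CLDN6 was lost without either 34 h library or replicate 1 at 72 h (up to 0.0957).

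The promoters of CLDN7 and CRB3 are shown because they held the most copies of CACCTG, the E-box form bound by SNAIL and ZEB proteins, among the epithelial genes with a promoter in the RefSeq table (GRCh38.p14; 250 bases before to 50 after a start). The 6 letters were searched on both strands. Of all 35116 promoters 20.6% held a match and 0.094% held at least 5. The table had promoters for 17 of the 30 epithelial genes, 25 in all, of which 14 held a match, and the CLDN7 start printed (of 2) and CRB3 held 5 each. Of the 10 regulators it had ZEB1 and ZEB2 alone. A match was found in 2 of the 7 starts of ZEB1. A match is a description and not a bound site. Matches are in capitals, 5′ to 3′ on the strand of the gene (CLDN7 minus, CRB3 plus).
CLDN7, chr17:7262429-7262728: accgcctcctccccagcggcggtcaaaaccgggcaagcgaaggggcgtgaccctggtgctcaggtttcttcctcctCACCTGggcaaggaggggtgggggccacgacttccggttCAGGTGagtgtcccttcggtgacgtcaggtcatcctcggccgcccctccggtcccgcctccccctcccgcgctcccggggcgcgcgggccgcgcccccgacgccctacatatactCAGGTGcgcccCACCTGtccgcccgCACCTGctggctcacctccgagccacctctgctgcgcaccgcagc
CRB3, chr19:6464021-6464320: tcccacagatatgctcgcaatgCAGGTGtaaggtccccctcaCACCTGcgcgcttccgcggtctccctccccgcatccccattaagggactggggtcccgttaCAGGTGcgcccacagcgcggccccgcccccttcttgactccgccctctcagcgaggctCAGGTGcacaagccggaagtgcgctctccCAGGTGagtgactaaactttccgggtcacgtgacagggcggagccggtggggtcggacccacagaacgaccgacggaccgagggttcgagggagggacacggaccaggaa

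Mesenchymal genes moved in both directions. Of 20 on the list 16 were tested, and at 72 h against 34 h 7 were raised and 5 lowered, where 12.7% of all tested genes were raised and 11.3% lowered. Their median was 0.04 against 0.06 over all tested genes. Those raised included CDH2, which encodes N-cadherin (14.9 to 71.8 TPM; 2.20 ± 0.12, limma adjusted p 1.26e-05), MMP2, a matrix protease (1.95), S100A4 (1.94) and VIM, which encodes vimentin (1.3). CDH2 (1.16) and MMP2 (1.04) were past the threshold already at 42 h. The call of S100A4 was lost without replicate 1 at 34 h or at 72 h (limma adjusted p up to 0.0696), and that of MMP2 at 42 h without replicate 1 at 34 h or either 42 h library (up to 0.079). Those lowered included COL1A1, a fibrillar collagen (-1.51). The fibroblast genes LUM and DCN were listed at 0 in all 8 libraries, and COL3A1 was listed at 0 in both libraries at 34, 50 and 72 h.

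**Figure D5:**
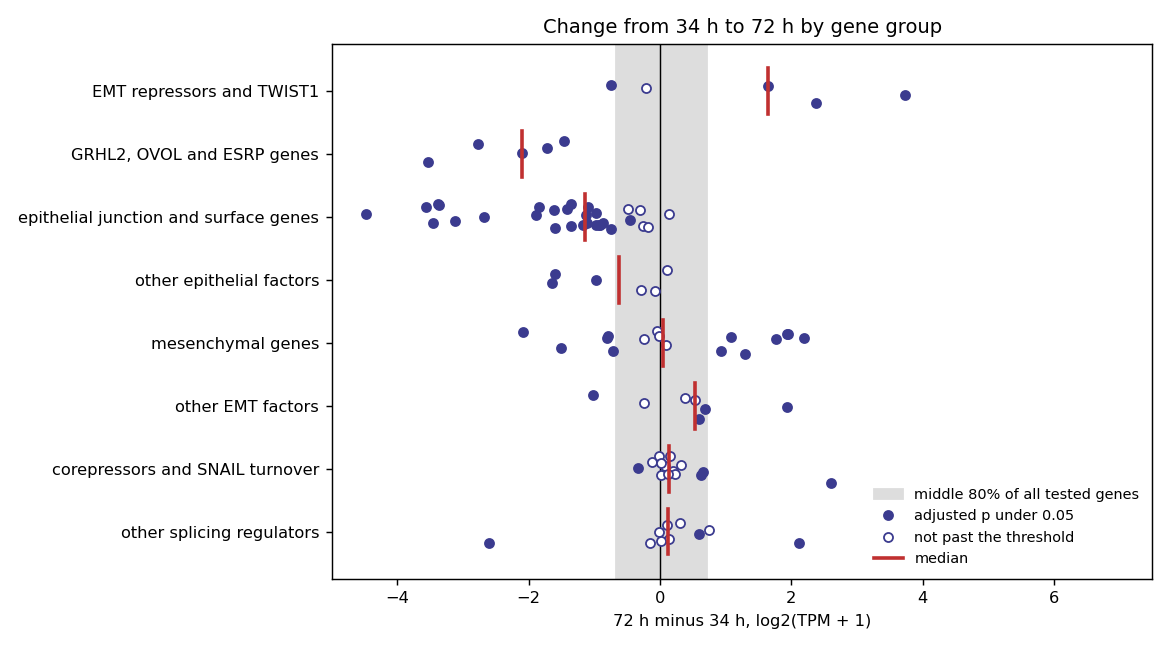
Difference between 72 h and 34 h in log2(TPM + 1) for the tested genes of each group, filled where the limma adjusted p was under 0.05, with the median in red and the middle 80% of all tested genes in grey. The medians of the GRHL2, OVOL and ESRP genes (-2.11) and the epithelial junction and surface genes (-1.15) lie left of the grey band, and that of the mesenchymal genes (0.04) lies near 0.

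Other regulators of the same kinds were mixed. Of 9 other EMT factors 7 were tested, and at 72 h 3 were raised and 1 was lowered, beside 12.7% and 11.3% of all tested genes, with a median of 0.53 against 0.06. PRRX1, a homeobox EMT factor, rose at 42 h from a mean of 0.0251 TPM to 2.84 TPM (1.9 ± 0.24, limma adjusted p 0.00494). Like PAX3, PAX6, FOXD3 and FOXA2 below, PRRX1 passed the filter only through the time points where it was high. The calls of these genes are therefore descriptions. TCF4, an E-protein partner of TWIST factors, rose by 0.68 at 42 h and was 0.59 above 34 h at 72 h, and HMGA2 rose by 0.68 at 72 h. SNAI3, the remaining SNAIL gene, went from 4.02 and 4.48 TPM at 34 h to 1.52 and 1.66 TPM at 72 h (-1.02, limma adjusted p 0.0412), a call that held in 11 of 18 alternatives and was lost without any 1 of those 4 libraries (up to 0.165). The 42 h call of TCF4 was lost without any 1 of the 34 or 42 h libraries (up to 0.0959). Of 9 other epithelial factors 6 were tested and 3 fell at 72 h, among them ELF3 (-1.64) and KLF4 (-0.97), and none rose, beside the same 11.3% and 12.7%. Their median was -0.63. KLF5 rose at 42 h (1.38) and did not pass the threshold at 72 h (-0.29, adjusted p 0.41). The 42 h call of KLF5 was lost without any 1 of the 34 or 42 h libraries (up to 0.151), and the 72 h call of KLF4 without replicate 2 at 34 h or replicate 1 at 72 h (up to 0.0777). The GRHL2 paralogs GRHL1 and GRHL3 did not pass the threshold at 42, 50 or 72 h against 34 h.

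Of 10 other splicing regulators, 2 rose and 1 fell at 72 h, a share near the 24.0% of all tested genes called in that contrast. RBM47, which supports epithelial splicing, fell by 2.61 (19.0 to 2.35 TPM; limma adjusted p 0.000211), MBNL3, of the muscleblind family, rose by 1.76 at 42 h and 2.11 at 72 h, and QKI, which acts in mesenchymal splicing, rose by 0.59 at 72 h. Gene totals do not show exon use, so splicing itself was not measured here. Of 14 corepressors and genes of SNAIL protein turnover, 3 rose and 1 fell at 72 h, also near that 24.0%. FBXL14, a ubiquitin ligase subunit that targets SNAI1 protein, was the 1 gene of that list raised at 42 h, from 5.08 to 23.8 TPM (2.03 ± 0.22, limma adjusted p 0.00198), and was at 35.9 TPM at 72 h.

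Markers of other cell types were followed beside these changes, and their part in the results was not tested. The 6 neural crest markers summed to 24.1 to 27.6 TPM at 34 h, 33.1 to 35.8 at 42 h, 32.5 to 32.6 at 50 h and 25.1 to 25.9 at 72 h. Among them TFAP2A had at most 0.795 TPM, FOXD3 was listed at 0 in both 72 h libraries, SOX10 had 2 to 3.66 TPM, and PAX3 rose at 72 h (2.29). FOXD3 fell already at 42 h (-1.65, limma adjusted p 0.00894, lost without either 42 h library). SOX9, which made up most of the sum, had 15 and 13.5 TPM at 34 h, 27.9 and 27.5 at 42 h, 26.3 and 27.7 at 50 h, then 16.1 and 16 at 72 h. It was higher in the middle than at the ends by 0.81 (limma adjusted p 0.00134), in the same libraries as TWIST1. The 6 primitive streak and mesoderm markers summed to 1.76 and 1.81 TPM at 34 h and 15.4 and 11.2 at 42 h. Their sums were 12.4 and 9.86 at 50 h, then 3.07 and 3.39 at 72 h. The sums were high in the same libraries as TWIST1, and MSGN1 was listed at 0 throughout. TBXT made up most of the sum at 42 h (11.4 and 7.92 TPM) and at 50 h (9.62 and 6.83 TPM). It rose at 42 h by 2.4 ± 0.24 (limma adjusted p 0.00149), a call that held in 19 of 19 alternatives. Of the 4 endoderm markers FOXA2 alone was tested, and it went from 11.9 and 13.4 TPM at 34 h to 0.575 and 0.866 at 72 h (-2.99, limma adjusted p 1.91e-05). The 6 non-neural ectoderm markers summed to at most 1.46 TPM in any library. The 5 neural progenitor markers went from 161 and 156 TPM to 320 and 287 TPM. Of the 4 tested, SOX1 rose from a mean of 1.89 to 50.8 TPM (4.16, limma adjusted p 6.53e-06), PAX6 rose from 0.154 to 3.8 TPM (2.06), and NES, most of the sum, rose from 135 to 229 TPM (0.76). SOX3 did not pass the threshold, and HES5 was listed at 0 at 72 h. The 5 pluripotency markers summed to 2670 and 2660 TPM at 34 h, against 1950 and 1860 at 72 h, the interval in which the epithelial genes fell. Of these 5, POU5F1 (-1.64) and DPPA4 (-1.21) fell, SOX2 rose (0.64, limma adjusted p 0.00117), and NANOG and LIN28A did not pass the threshold.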

How the data were processed

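Poly(A) RNA of 8 libraries, 2 at each of 4 time points, was quantified by the authors; the submitters' processing notes name Salmon 1.9.0 and GRCh38, and the annotation, filters and step from transcripts to genes are not given in the sources used here. The deposited values are TPM per Ensembl gene, each library summing to 1000000, so depth is unknown and no counting interval was computed. TPM were summed by symbol (37951 rows, 35940 symbols), and the 14908 genes reaching 1 TPM in 2 or more libraries were tested. Time points were compared in one limma fit (version 3.58.1, R 4.3.3) of log2(TPM + 1) over the 8 libraries, with a variance trend and a mean for each time, and p-values were adjusted by Benjamini-Hochberg over all tested genes, two-sided. The script was tested on simulated data. An exact permutation test of 2 against 2 cannot go below 0.333. The series text calls the second replicate independent and biological, and p-values measure the spread between these libraries only.

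The members and gene lists were chosen with earlier results of these data known. All 10 members are named; list genes are named where called at 42 h or 72 h against 34 h, up to 6 per direction, and a few others were named after their values were seen. The replicate number is the batch label; differences between replicates across genes correlated from -0.104 to 0.195 between time points, and blocked values stand beside a printed result where they change its call. GENCODE release 29 gives positions on GRCh38, 1-based. Its models of ESRP2, OVOL1, OVOL2, GRHL2, TWIST1, ZEB1 and ZEB2 overlap other genes, and whether the libraries kept strand is not given, so reads there may be shared. The 2 microRNA host genes on the list were not analysed here, and some list genes that the rule would name are not reported here.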

Additional observations from a re-analysis of the deposited data

How the results depend on the processing

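The results were recomputed under 19 alternatives, 11 settings and each of the 8 libraries left out (18 for the middle against the ends, where compared time points alone do not apply). The count of the 10 genes called was 1 at 42 h against 34 h and 0 at 50 h against 42 h in each of them. With a mean of at least 5 TPM required, which leaves only 4 of the 10 genes tested, the counts were 2 at 50 h against 34 h, 4 at 72 h against 34 h, 3 at 72 h against 50 h and 2 for the middle against the ends. With the compared time points alone 3 were called at 72 h against 50 h. Without the filter, and with the replicate block, 2 were called for the middle against the ends; the block changed otherwise the calls of SNAI2 at 72 h against 50 h and OVOL1 at 50 h against 34 h, and no other call at 42, 50 or 72 h against 34 h or at 72 h against 50 h. Leaving out 1 library gave 2 to 5 calls at 50 h against 34 h, 8 to 9 at 72 h against 34 h, 3 to 4 at 72 h against 50 h and 1 to 2 for the middle against the ends. Among 822 recomputed values of 45 differences of the 10 genes (all those at 42, 50 and 72 h against 34 h and at 72 h against 50 h, the 4 called for the middle against the ends, and ZEB2 at 50 h against 42 h), 746 kept direction and side of the threshold, 69 lost and 6 gained the call. The 1 that changed sign was OVOL2 at 42 h against 34 h, 0.12 with all libraries and from -0.04 (without replicate 2 at 42 h) to 0.28 with 1 library left out. TMM rescaling turned the 1900 raised and 1678 lowered calls over all genes at 72 h against 34 h into 1552 and 2003 (53.1% to 43.7% raised, 47.7% after quantile normalization). It moved that share at 50 h against 34 h from 56.3% to 47.6%, and at 50 h against 42 h from 64.3% to 47.4% (45.0% after quantile normalization). With 2 libraries per time point and values under 1 TPM for GRHL2, OVOL1, OVOL2, TWIST1, ZEB1 and SNAI2 at some time points, small changes of these genes cannot be resolved.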
